A study of Mus musculus with 12 samples.

Results

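Aire and its neighbours Dnmt3l, Icosl and Pfkl on mouse chromosome 10 were described through the accessible regions (peaks) called inside these 4 genes or within 20 kb of either end, among 21631 protein-coding genes in all. The 4 windows joined into 1 stretch, chr10:77966947-78099525 (mm10), and the peaks of 12 libraries merged there into 36 regions, of 228401 regions genome-wide. ATAC-seq, which finds DNA that a transposase can enter, had been applied to sorted mTEChi, the mature medullary epithelial cells of the thymus. All mice were C57BL/6, aged 4 to 7 weeks. The knockout set held 2 libraries of Aire -/- and 2 of Aire +/+, the C313Y set 2 of Aire +/C313Y and 2 of Aire +/+, and the C442G set 2 of Aire +/C442G and 2 of Aire +/+. The heterozygotes carry 1 Aire allele with the cysteine change in their name beside 1 normal allele. That each wild-type pair belongs to the mutant pair with similar titles is assumed, not stated in the labels. Neither the exons removed in the knockout nor separate animals for the replicates are given in the labels, so no peak below tests the deletion, and the spread between replicates may be technical. The title of the study names regulation of AIRE by itself as a question. The regions around Aire are compared below between genotypes.

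Aire encodes the autoimmune regulator, a nuclear protein that makes mTEChi transcribe genes otherwise restricted to other tissues, so that developing T cells meet those antigens. In these cells Aire is switched on through RANK and CD40 signals and the NF-kB pathway, and a conserved noncoding element upstream of its promoter is needed for its expression in mice. Dnmt3l encodes a cofactor of the DNA methyltransferases that set methylation in germ cells and is transcribed from different promoters in male and female germ cells. Icosl encodes the ligand of the T cell costimulatory receptor ICOS, and Pfkl encodes the liver-type phosphofructokinase of glycolysis. By the RefSeq table for GRCm38.p6, Pfkl (gene 18641, minus strand) spans 77986947 to 78009807 and Aire (gene 11634, minus strand) 78030022 to 78043610. Dnmt3l (gene 54427, plus strand) spans 78042287 to 78063622 and Icosl (gene 50723, plus strand) 78069368 to 78079525. Aire and Dnmt3l are thus annotated head to head on opposite strands, with an overlap of 1324 bp at their 5' ends. The other genes within reach were Trpm2, Cfap410 and the noncoding Gm51807 on the Pfkl side, and the noncoding Gm51775 and Gm30039 on the Icosl side.

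The 250 bases before the annotated starts are shown because they separate the members: the start base lay under a peak in all 12 libraries at Aire and Pfkl, in 11 of 12 at Icosl, and in 0 of 12 at each of the 3 annotated starts of Dnmt3l. Of 21045 annotated starts of protein-coding genes, 32.4% were covered in all 12. The sequences are RefSeq's for GRCm38.p6, written 5' to 3' along the gene's strand and ending at the base before the start. Capitals mark CCAAT on either strand (ATTGG on the reverse), TATAAA and GGGCGG on either strand (CCGCCC on the reverse). They lie at chr10:78043611-78043860 (Aire, minus strand), chr10:78009808-78010057 (Pfkl, minus strand), chr10:78069118-78069367 (Icosl, plus strand), and chr10:78042037-78042286 and chr10:78049592-78049841 (Dnmt3l, the first and second annotated starts, plus strand).
Aire: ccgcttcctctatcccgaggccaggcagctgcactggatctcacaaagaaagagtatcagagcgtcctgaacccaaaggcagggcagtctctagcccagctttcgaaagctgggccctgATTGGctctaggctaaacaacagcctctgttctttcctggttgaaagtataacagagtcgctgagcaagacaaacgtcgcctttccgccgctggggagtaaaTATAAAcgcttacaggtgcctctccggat
Pfkl: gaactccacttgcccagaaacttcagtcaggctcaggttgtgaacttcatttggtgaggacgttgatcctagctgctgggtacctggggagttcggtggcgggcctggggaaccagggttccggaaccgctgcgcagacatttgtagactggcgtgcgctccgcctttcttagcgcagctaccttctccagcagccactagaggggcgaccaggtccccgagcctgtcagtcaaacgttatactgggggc
Icosl: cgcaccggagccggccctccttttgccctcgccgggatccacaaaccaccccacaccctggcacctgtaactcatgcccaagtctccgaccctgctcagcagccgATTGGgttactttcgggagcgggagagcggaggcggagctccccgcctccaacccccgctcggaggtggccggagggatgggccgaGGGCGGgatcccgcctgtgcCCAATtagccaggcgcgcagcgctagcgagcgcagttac
Dnmt3l start 1: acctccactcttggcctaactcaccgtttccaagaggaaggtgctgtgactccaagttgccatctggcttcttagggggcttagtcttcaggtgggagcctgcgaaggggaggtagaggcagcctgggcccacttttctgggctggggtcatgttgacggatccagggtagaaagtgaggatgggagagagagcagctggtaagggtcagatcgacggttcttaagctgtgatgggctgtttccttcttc
Dnmt3l start 2: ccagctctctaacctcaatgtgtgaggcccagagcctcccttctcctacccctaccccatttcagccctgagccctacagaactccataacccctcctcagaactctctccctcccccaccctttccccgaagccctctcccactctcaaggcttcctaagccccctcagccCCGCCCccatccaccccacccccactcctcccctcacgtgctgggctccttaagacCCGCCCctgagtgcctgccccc
The Aire sequence held TATAAA 29 to 24 bases before the start, under a peak in all 12 libraries, and a reverse CCAAT 131 to 127 bases before it, wholly under a peak in 7 libraries. Icosl held CCAAT 145 to 141 and 39 to 35 bases before its start and GGGCGG at 59 to 54, each covered in all 12 libraries. Icosl also held the 10-letter pattern GGGNNNNNCC, a loose form of an NF-kB site, on both strands (111 to 102 and 71 to 62 bases before the start), and Aire did not. Over all 21045 windows of this length, 11.7% held TATAAA, 35.6% CCAAT, 43.1% GGGCGG and 52.2% GGGNNNNNCC. A match is a description of letters only. Pfkl and the first Dnmt3l start held none of these 4 patterns, while the second Dnmt3l start held GGGCGG at 2 places without a peak in any library. The share of G and C was 68.8% at Icosl (23 CpG), 59.2% at Pfkl (13 CpG) and 53.2% at Aire (11 CpG), and at the 3 Dnmt3l starts 55.6% (5 CpG), 64% (4 CpG) and 61.6% (3 CpG). The median of all starts was 55.6% and 10 CpG.

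Peak number ranged from 34047 to 122326 per list and covered length from 7.04 to 30.3 Mb, without read counts, so depth was unknown and a missing peak means not called. List length moved with genotype in the knockout set, with 85826 and 94976 peaks in Aire -/- against 34715 and 34047 in Aire +/+. It did so less in the C442G set (122326 and 115034 against 93659 and 94458) and overlapped in the C313Y set (75830 and 57280 against 73976 and 55861). The 4 lists of the C313Y set gave positions only, so peak strength was known for 8 libraries. As a check of the labelled cell type, markers with a peak no more than 1 kb from an end of the gene were counted. The 13 mTEC markers include Aire itself, which like Epcam was called in all libraries, while Ciita was called in 0. Per library 6 to 12 of the 13 were called, beside 51.6% to 66.2% of all protein-coding genes. The range was 1 to 3 of 4 for cortical epithelium, 0 to 2 of 7 for thymocytes, 2 to 5 of 6 for dendritic cells and macrophages, 0 to 3 of 5 for B cells, 0 to 4 of 4 for fibroblasts and 0 to 1 of 3 for endothelium. In the knockout set more markers were called in both Aire -/- libraries than in both wild types for mTEC (8 and 10 against 6 and 6), dendritic cells and macrophages (4 and 4 against 2 and 2), fibroblasts (3 and 3 against 2 and 0) and cortical epithelium (3 and 3 against 2 and 1). Over all genes the shares there were 61.3% and 63.0% against 51.6% in each wild type. In the C313Y set the fibroblast markers Dcn and Pdgfra were lost and Pdgfrb was gained. The part of these markers in the results below was not tested.

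Between 10 and 21 peaks per library fell in the stretch. Of the 36 regions, 8 were called in all 12 libraries, beside 8.16% of all regions genome-wide, and 15 in at least 6, beside 28.9%. Aire had 2 recurrent regions nearest its start and 1 nearest its 3' end. Pfkl had 2 nearest its start, Icosl 1 at its start, and no recurrent region was nearest to an end of Dnmt3l. The other 9 were nearest to ends of Cfap410 (2), Gm51807 (1), Trpm2 (1), Gm51775 (1) and Gm30039 (4). The assignment was the same for all 15 whether distance was taken from the midpoint or from the nearest edge. Of the 21 regions called in fewer than 6 libraries, 16 were seen in mutant libraries only, 4 in wild types only and 1 in both, beside 47.4%, 27.5% and 25.2% of all regions called in fewer than 6 libraries.

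**Figure D1:**
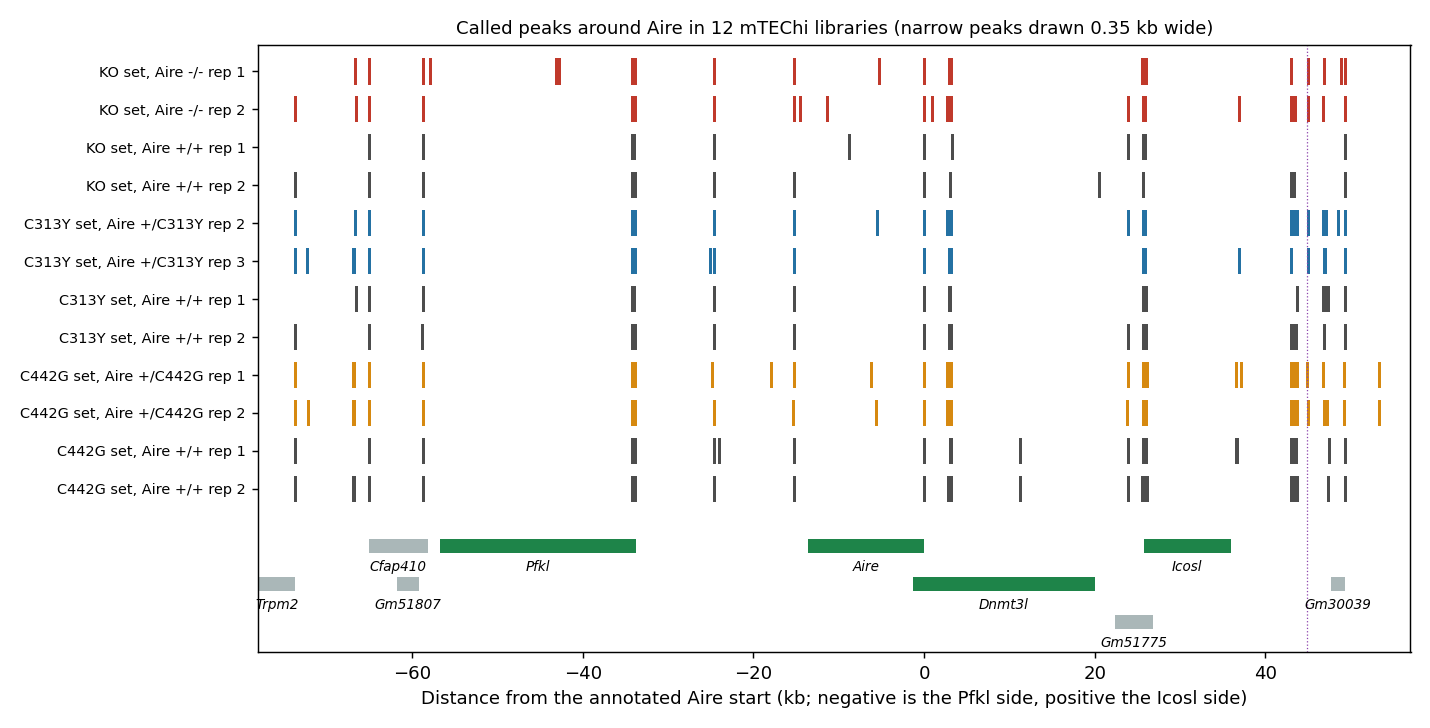
Called peaks in the 12 libraries (rows) by distance in kb from the annotated Aire start, with gene spans below (green for the 4 genes, grey for other annotated genes). Upright columns are regions called in many libraries, and the dotted line marks the region called in all 6 mutant and 0 of 6 wild-type libraries.

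The Aire promoter was accessible in every genotype, the knockout included. Its region, 78043452 to 78043805, lay across the start with its midpoint 18.5 bp away and 1341.5 bp from the first start of Dnmt3l, inside the Aire and Dnmt3l overlap on one side and in Dnmt3l alone on the other. The peak reached 85 to 195 bp (median 164) before the Aire start and 102 to 159 bp (median 132) into the gene. Its width was 281 and 304 bp in Aire -/- against 187 and 230 bp in the paired wild types. It was 251 and 292 bp in Aire +/C313Y against 273 and 316 bp, and 299 and 317 bp in Aire +/C442G against 257 and 300 bp. The mutants thus lay above their wild types in the knockout set only, as for 60.2% of the regions called in all 12 libraries, and the groups overlapped in the other sets. By width percentile within the list both Aire -/- libraries were again above (by 13.9 points, a separation found in 60.3% of regions), whereas both Aire +/C313Y libraries were below their wild types (by −5.03 points, a separation found in 14.6%). Over the 3 contrasts the mean log2 ratio of width was 0.18 (exact permutation p = 0.185, Benjamini-Hochberg adjusted p = 0.436 over 18634 regions called in all 12 libraries). The median of those regions was 0.22.

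Like the other stretch regions called in all 12 libraries, the Aire promoter peak ranked lowest by −log10 p in the knockout set's wild types. Fold enrichment over background, as the authors' caller gave it, was 5.95 and 5.99 in Aire -/- against 4.19 and 4.29 in its wild types. It was 7.48 and 7.85 in Aire +/C442G against 7.72 and 6.83. Ranked by −log10 p within its own list, the peak stood at the 86.1 and 87.2 percentiles in Aire -/- and at 49.1 and 49.99 in its wild types, then at 95.5 and 94.9 in Aire +/C442G and at 96.6 and 92.2 in its wild types. The knockout difference was 37.1 points, above that of 86.6% of regions called in all 12 libraries, whose median difference was 15.9 points. In 75% of those regions both Aire -/- libraries also stood above both wild types. In the C442G set the groups overlapped, with a difference of 0.79 points against a median of 1.64.

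A separate region upstream of Aire, 78046194 to 78047024, was the one near Aire whose width separated mutants from wild types in every set. Its midpoint lay 2999 bp before the Aire start and 4322 bp after the first Dnmt3l start, inside the annotated span of Dnmt3l. The second Dnmt3l start, at 78049842, lies on its other side at a distance similar to that of the Aire start. Starts inside a span did not enter the assignment, so proximity alone does not settle which gene the region belongs to. The conserved element known upstream of Aire has no coordinates in the files, so an overlap with it was not tested. Width was 521 and 796 bp in Aire -/- against 235 and 310 bp in the paired wild types. It was 805 and 578 bp in Aire +/C313Y against 482 and 535 bp, and 789 and 823 bp in Aire +/C442G against 496 and 734 bp. Mutants lay above their own wild types in all 3 sets, as they did for 4.67% of the regions called in all 12 libraries. In single sets this held for 60.2% (knockout), 30.2% (C313Y) and 22.9% (C442G) of those regions. The mean log2 ratio was 0.70 (exact permutation p = 0.00926, the smallest the design allows), and the adjusted p of 0.198 over all regions missed the threshold of 0.05. By the exact permutation test 0 of 18634 regions passed adjustment and 3210 (17.2%) had an unadjusted p under 0.05.

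Relative to its own list, the upstream region was also wider in mutants. Its width percentile exceeded that of both paired wild types in all 3 sets, which held for 3.54% of regions, with a mean gain of 9.96 points (exact permutation p = 0.00926, adjusted p = 0.259). The gain was 21.9 points in the knockout set, 2.85 in the C313Y set and 5.16 in the C442G set, where the medians of all such regions were 11.4, 0.38 and 0.70. The edge toward Aire lay 2584 to 3127 bp from the Aire start over the 12 libraries, a spread of 543 bp, and the far edge at 3262 to 3414 bp, a spread of 152 bp. All 12 libraries shared a core of 136 bp, 78046737 to 78046872. The far edge lay further out in both mutants than in both wild types in every set, at 3370 and 3408 bp against 3361 and 3262 bp (knockout), 3388 and 3382 bp against 3327 and 3337 bp (C313Y), and 3409 and 3414 bp against 3365 and 3380 bp (C442G). The edge toward Aire lay closer to Aire in the mutants of the knockout set (2850 and 2613 bp against 3127 and 2953 bp) and of the C442G set (2621 and 2592 bp against 2870 and 2647 bp). In the C313Y set that edge overlapped, at 2584 and 2805 bp against 2846 and 2803 bp. The edges come from the same peaks as the widths, and the share of all regions with such edges was not computed.

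**Figure D2:**
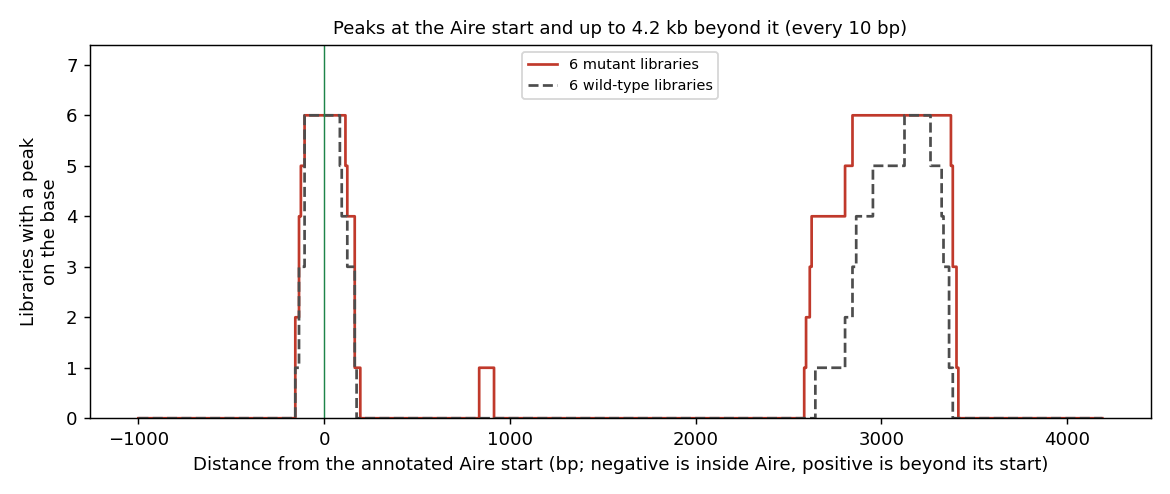
Number of libraries with a peak on each base, by distance in bp from the annotated Aire start (negative is inside Aire), for the 6 mutant libraries (solid) and the 6 wild-type libraries (dashed). Both groups reach 6 at the start and in the upstream core, and the mutant profile extends past the wild-type profile on both sides of the upstream region.

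The upstream region was wide but not strong. Its fold enrichment was 4.45 and 4.73 in Aire -/- against 3.72 and 4.11 in the wild types, and 4.11 and 4.33 in Aire +/C442G against 3.82 and 3.89. Its −log10 p percentile was 68.1 and 74.7 against 26.2 and 40.9 in the knockout set, and 71.4 and 69.9 against 64.1 and 61.4 in the C442G set. Mutants thus stood above their wild types in both sets that give strength. The differences of 37.8 and 7.87 points exceeded those of 87.2% and 85.3% of regions, and such separation in the C442G set held for 36.1% of regions. Over the 8 lists the median percentile of the region was 95.2 by width, 66.1 by −log10 p and 39.3 by fold, so its place among the peaks depends on the measure.

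Past the other end of Aire, 2 recurrent regions lay between it and Pfkl. The region at 78028165 to 78028486, nearest the 3' end of Aire with its midpoint 1696.5 bp away, was called in 11 libraries and not in the first Aire +/+ replicate of the knockout set. It was 96 to 262 bp wide, with folds of 5.54 and 5.84 in Aire -/-, 4.26 in the wild type that had it, 7.38 and 6.80 in Aire +/C442G and 9.70 and 7.94 in the C442G wild types. The wild types of the C442G set were thus the highest, above their heterozygotes. The region at 78018652 to 78019119, called in all 12, was 9078.5 bp from the Pfkl start and 11136.5 bp from the 3' end of Aire.

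That intergenic region was narrow and strong. Its width was 138 and 263 bp in Aire -/- against 83 and 117 bp, 134 and 102 bp in Aire +/C313Y against 86 and 120 bp, and 351 and 180 bp in Aire +/C442G against 144 and 133 bp. Mutants and wild types were separate in the knockout and C442G sets and overlapped in the C313Y set. The mean log2 ratio was 0.67 (exact permutation p = 0.0185, adjusted p = 0.215). Its −log10 p percentile was 81.7 to 96.5 over the 8 lists, and in the C442G set it was no higher in heterozygotes (mean 95.3) than in wild types (mean 95.9).

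The body of Aire was nearly empty of peaks. Apart from the promoter region, 5 regions lay within it, and each was called in 1 or 2 libraries with a fold of 3.04 to 3.64 where the list gave one. Peaks touching the gene numbered 1 or 2 per library.

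**Figure D3:**
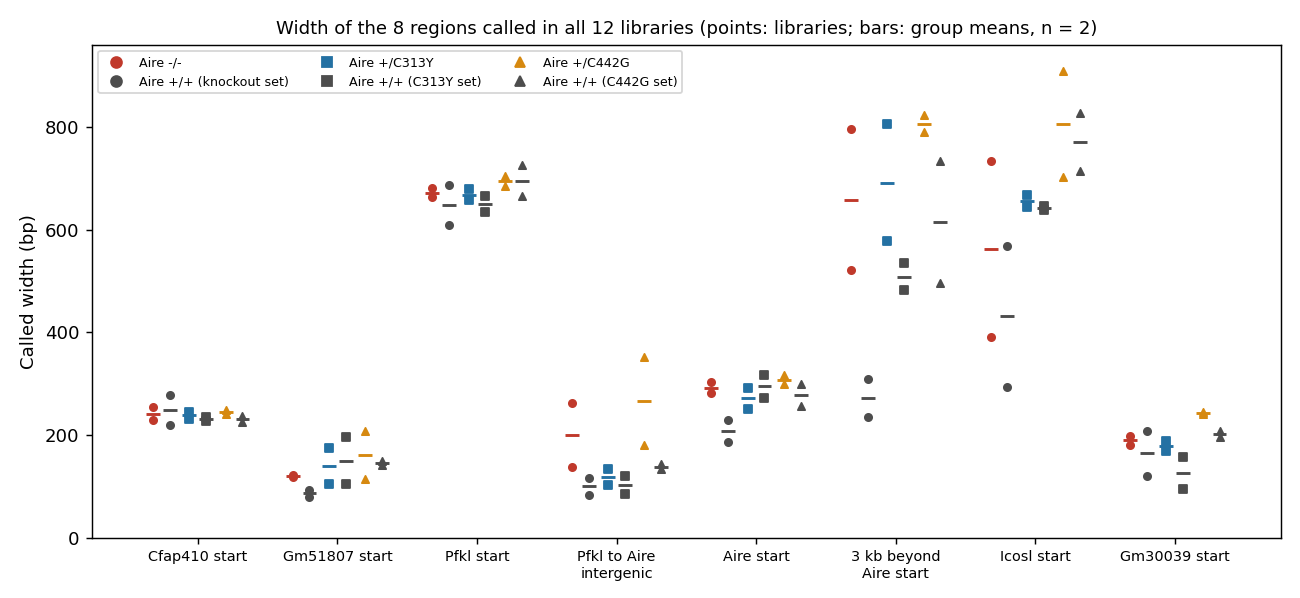
Width in bp of the 8 regions called in all 12 libraries, in genomic order, with points for libraries and bars for group means (n = 2). At 3 kb beyond the Aire start every mutant point lies above its own wild-type points, while the Pfkl start stays between 608 and 725 bp.

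Dnmt3l had no recurrent region at an annotated start. No library had a peak within 1 kb of its first or second start, and 2 had one within 1 kb of the third. These were the 2 wild types of the C442G set, with a region at 78054728 to 78055094 inside Dnmt3l. Its peaks were 314 and 71 bp wide, with folds of 3.32 and 4.00 and a −log10 q of 1.52 and 2.64, close to the lowest value of about 1 in these lists. Neither Aire +/C442G library had it, which made it the 1 region lost there among the 26 regions of the stretch in that set (3.85%, beside 1.01% of all regions). By nearest gene end, the peaks counted in the Dnmt3l window were therefore assigned mainly to its neighbours. The Aire promoter and the upstream region both lay inside its annotated span, and the Icosl start lay within 20 kb of its end.

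The Icosl start was accessible in all libraries. Its region, 78069089 to 78070011, was 733 and 390 bp wide in Aire -/- against 568 and 294 bp, 643 and 667 bp in Aire +/C313Y against 639 and 646 bp, and 909 and 702 bp in Aire +/C442G against 714 and 826 bp. The groups overlapped in every set, and the mean log2 ratio was 0.16 (exact permutation p = 0.435, adjusted p = 0.658). In the second Aire -/- library the region was split into 2 peaks with the start base in the gap. Strength gave another order: the −log10 p percentile was 89.4 and 90.8 against 67.8 and 72.9 in the knockout set, and 84.2 and 84.9 against 73.7 and 80.2 in the C442G set. Mutants were above in both, by 19.7 and 7.63 points, beside medians of 15.9 and 1.64. A region at the 5' side of Icosl, 78067301 to 78067709 within Gm51775, was called in 8 libraries, 4 mutant and 4 wild type.

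Past Icosl lay the region of the stretch that followed genotype most closely. It covered 183 bp, 78088414 to 78088596, between genes, 8.889 kb beyond the 3' end of Icosl and nearest to the 3' end of Gm30039 (2833 bp), and it was called in 6 of 6 mutant and 0 of 6 wild-type libraries. Genome-wide 115 regions were called this way (0.0504% of all regions, and 1.24% of the 9241 regions called in exactly 6 libraries), and 0 the other way round. The peak was 112 and 100 bp wide in Aire -/-, 78 and 149 bp in Aire +/C313Y and 133 and 108 bp in Aire +/C442G. Fold was 4.21 and 4.82 in Aire -/- and 4.36 and 3.98 in Aire +/C442G, with −log10 q of 3.55, 5.98, 6.94 and 5.004. These peaks were of middle rank, at the 57.04 to 73.7 percentiles by −log10 p. The wild-type lists of the C442G set lacked it too. They were similar to those of Aire -/- in peak number but covered more (23.7 and 23.3 Mb against 17.6 and 20.1 Mb). The part of list length in these calls was not tested. With lists cut to equal length it was gained in the knockout and C442G sets but not in the C313Y set, where lists can be cut by width alone.

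Gains and losses elsewhere in the stretch were few. In the knockout set 3 of 26 regions were gained (11.5%, beside 20.1% of all regions) and 0 lost (beside 0.0839%). In the C313Y set 1 of 21 was gained (4.76%, beside 4.43%) and 0 lost (beside 1.34%). In the C442G set 3 of 26 were gained (11.5%, beside 7.09%), and the lost region was the one in Dnmt3l. The region beyond Icosl was among the gains of every set. The other gains were the region at 77976604 to 77977012 near the Cfap410 start (knockout set), a region near the 3' end of Gm30039 (78090246 to 78090563 in the knockout set, 78090263 to 78090582 in the C442G set), and the region at 78096788 to 78096882 (C442G set). The first of these was also called in 2 wild-type libraries of other sets. Both wild types of the C313Y set had a peak on the gained stretch near Gm30039, starting at 78090294 and 78090336. Near Gm30039 the C442G wild types had peaks further along, from 78090870, which overlapped another peak of 1 heterozygote but not the gained stretch. No gained or lost region in any set was nearest to an end of Aire. Leaving out 1 library raised the gains to as many as 8 in the knockout set, 4 in the C313Y set and 6 in the C442G set. With 1 library fewer the rule for a gain is looser, so a rise is built in, and its genome-wide share was not computed.

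On the Pfkl side the strongest signal of the stretch by −log10 p belonged to a neighbour. The region at the Cfap410 start, 77978422 to 77978699, had the highest −log10 p of the stretch in all 8 lists that give strength, at percentiles of 85.1 to 98.7. By fold (6.52 to 13.6) it was exceeded in 5 of these lists, by the intergenic region between Pfkl and Aire or by the region nearest the Gm51807 start. The Pfkl start region, 78009226 to 78009967, varied little in width, at 608 to 725 bp in all 12 libraries. It was 680 and 663 bp in Aire -/- against 608 and 686 bp, 678 and 657 bp in Aire +/C313Y against 634 and 666 bp, and 685 and 704 bp in Aire +/C442G against 665 and 725 bp. The groups overlapped in every set, and the mean log2 ratio was 0.03 (exact permutation p = 0.398, adjusted p = 0.628). Its fold was 8.26 and 9.40 in Aire -/- against 5.70 and 5.52 in the wild types, and 10.9 and 9.39 in Aire +/C442G against 8.74 and 8.26. Mutants were above in both sets by fold, but within the C442G lists its −log10 p percentiles overlapped, with means of 95.2 and 95.01.

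**Figure D4:**
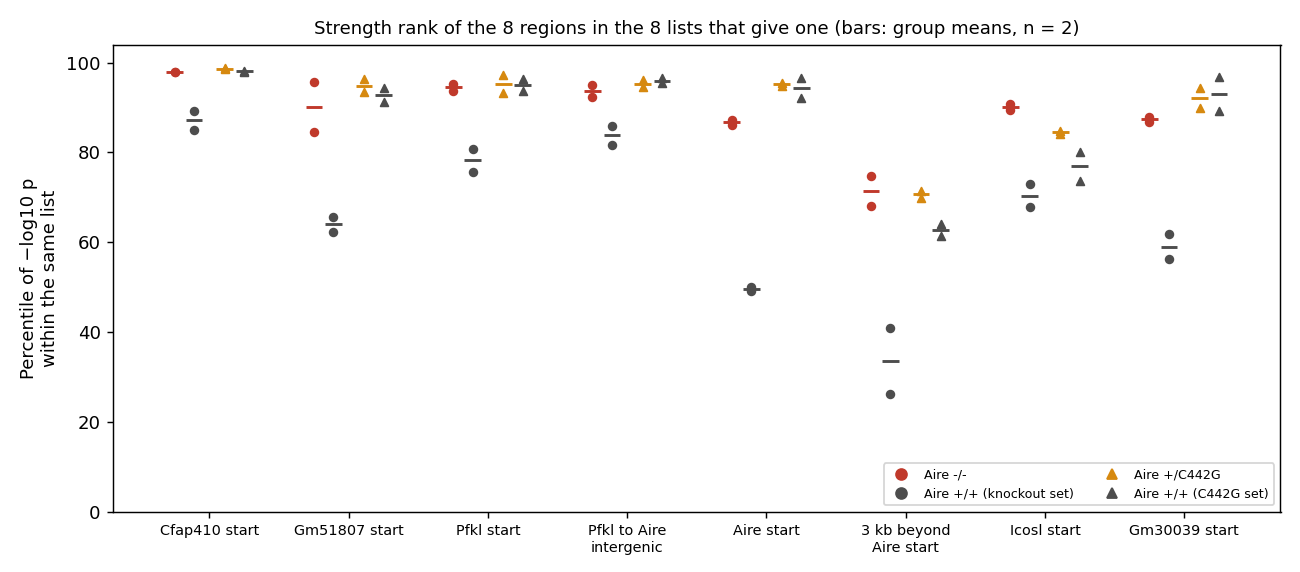
Percentile of −log10 p within the same list for the 8 regions called in all 12 libraries, in the 8 lists that give strength, with bars for group means (n = 2). The wild types of the knockout set (dark circles) are lowest at every region, reaching 49.1 and 49.99 at the Aire start, while the 2 groups of the C442G set differ by under 3 points in mean except at the upstream and Icosl start regions (7.87 and 7.63 points).

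Summed over the whole window, mutants had more DNA under peaks than their wild types around Aire, Dnmt3l and Pfkl in every set. Around Icosl the groups overlapped in the C442G set (2794 and 2316 bp against 2585 and 1723 bp). The length covered within 20 kb of Aire was 1134 and 1904 bp in Aire -/- against 573 and 758 bp, 1454 and 1199 bp in Aire +/C313Y against 959 and 1067 bp, and 2048 and 1886 bp in Aire +/C442G against 1642 and 1400 bp. Mutants were above their wild types in all 3 sets, as for 11.5% of genes, and in single sets for 74% (knockout), 25.3% (C313Y) and 39.3% (C442G). The mean log2 ratio, with 100 bp added to each length, was 0.60 for Aire (exact permutation p = 0.00926, adjusted p = 0.0803 over all genes), 0.43 for Dnmt3l, 0.38 for Icosl and 0.44 for Pfkl, beside a median of 0.40 over all genes. The adjusted exact permutation p was 0.0803 for Dnmt3l and Pfkl and 0.0965 for Icosl. By this test 0 genes passed adjustment and 7200 (33.3%) had an unadjusted p under 0.05.

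As a share of what each list covered, no member stood apart. Per Mb covered by the list, the Aire window held 64.6 and 94.7 bp in Aire -/- against 81.4 and 103.9 bp, 85.3 and 95.9 bp in Aire +/C313Y against 66.9 and 86.1 bp, and 67.6 and 66.0 bp in Aire +/C442G against 69.4 and 60.2 bp. The groups overlapped in every set. For Dnmt3l, Icosl and Pfkl both Aire -/- libraries lay below both wild types, as for 34.2% of genes, and for Icosl both Aire +/C313Y libraries lay above theirs, as for 16.7%. The mean log2 ratio of the share was −0.03 for Aire (exact permutation p = 0.843), −0.19 for Dnmt3l (p = 0.287), −0.24 for Icosl (p = 0.296) and −0.16 for Pfkl (p = 0.5), beside a median of −0.22 over all genes. In the exact permutation test of shares 0 genes passed adjustment and 5166 (23.9%) had an unadjusted p under 0.05. Set beside the C442G wild types, whose lists are similar in peak number, Aire -/- had 1519 ± 544 bp against 1521 ± 171 bp (SD, n = 2 each) in the Aire window. Its upstream region was 658.5 ± 194 bp wide against 615 ± 168 bp and its promoter region 292.5 ± 16.3 bp against 278.5 ± 30.4 bp, differences in bp within the spread of the replicates. Ranks within the lists did differ by more than that spread: by −log10 p the promoter region stood at 86.7 ± 0.80 against 94.4 ± 3.15 and the upstream region at 71.4 ± 4.72 against 62.8 ± 1.90. The promoter region's width percentile was 78.4 ± 1.08 against 69.7 ± 4.97, and the −log10 p percentile of the Icosl start was 90.1 ± 1.02 against 76.9 ± 4.599. This comparison crosses sets, so genotype and set cannot be told apart in it, and the same differences over all regions were not computed.

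**Figure D5:**
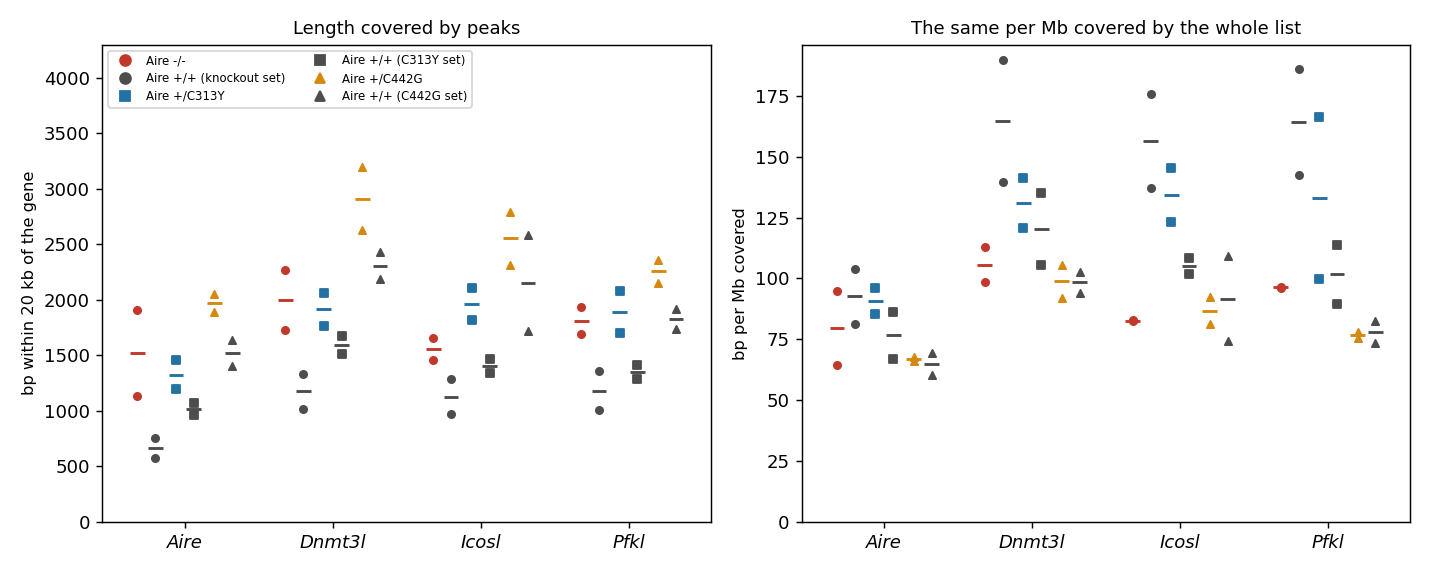
Length covered by peaks within 20 kb of each gene in bp (left) and the same per Mb covered by the whole list (right), with points for libraries and bars for group means (n = 2). On the left the Aire -/- points lie above their wild types for all 4 genes, and on the right they do not.

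Per kb of window, Aire had the lowest median coverage of the 4 genes, though it was not the lowest in every library. Coverage was 10.7 to 38.2 bp per kb for Aire (median 24.2 over 12 libraries), with medians of 27.4 for Pfkl, 31.2 for Dnmt3l and 33.7 for Icosl. The median over all genes was 12.6 bp per kb, and the ranges of the 4 genes overlapped. The windows overlap as well, so a peak may count for up to 3 of them. The protein-coding genes over 1 Mb away whose window share followed that of Aire most closely over the 12 libraries were Btbd2 (Pearson r = 0.96), Rnf10 (0.94), Arv1 (0.93), Ppfia1 (0.93) and Mrto4 (0.93). This is a description over 12 libraries in which every gene shares the length of its list, and the median r over all genes was 0.46.

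Genes that act with the members were mostly accessible at an end in every genotype. By the same rule a peak was called in all 12 libraries at 16 of 20 genes listed as linked to Aire induction (Tnfrsf11a, which encodes RANK, among them). It was called in all 12 at 20 of 22 genes for AIRE partner proteins, 13 of 18 genes of glycolysis and 8 of 11 genes of DNA methylation, against 46.6% of all genes. In contrast to Dnmt3l, Dnmt3b was called in all 12, while Dnmt1 and Dnmt3a were called in 0 at the ends of their annotated spans, where starts inside the span do not count. Of 13 costimulation genes 4 were called in all 12. In the knockout set 5 costimulation genes were gained, namely Cd276, Cd86, Ctla4, Pdcd1lg2 and Icos, which encodes the receptor of the Icosl product, beside 5.21% of all genes. Xrcc6 of the AIRE partners and Tet1 of the methylation genes were gained there as well. Tnfsf4 was gained in the C313Y set (beside 0.846%) and Pdcd1lg2 in the C442G set as well (beside 0.897%). Naming Pdcd1lg2 in the knockout set goes beyond the rule of 4 names per list and was chosen after its values were seen. None of these 5 lists lost a gene in any set, beside 0.0277%, 0.37% and 0.291% of all genes in the knockout, C313Y and C442G sets.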

How the data were processed

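ATAC-seq peaks of 12 mTEChi libraries, 2 per group, were used as deposited. Per the submitters' processing notes, cutadapt, Bowtie2, Picard, MACS2 and mm10 were used; their versions and order, read shifting and any control were not stated in the sources. Peaks were called by the authors per library. For 8 libraries the authors' deposited files give each peak a score, a fold enrichment (a ratio to background) and the −log10 of its p and q; the 4 C313Y-set files give positions only. No counts are given, so depth and the precision it gives are unknown.

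Peaks on chromosomes 1 to 19 and X were merged over libraries where they overlapped by at least 1 bp. A recurrent region was called in at least 6 of 12 libraries. Gene spans and starts came from RefSeq tables of build GRCm38.p6 (the coordinates of mm10), and windows reached 20 kb past each end. Each region went to the gene end nearest its midpoint, where annotated starts inside a gene span were not used. A region was gained with peaks in both mutant and neither wild-type library of a set (merged within the set), and lost in reverse. Covered length (plus 100 bp), its share per Mb of the list, width and width percentile were compared as a mean over 3 contrasts by a two-sided exact permutation test with labels exchanged within each contrast (216 assignments, smallest p 0.00926; 0.333 within 1 contrast), adjusted by Benjamini-Hochberg over 21631 genes or 18634 regions, with a threshold of 0.05. Genes named were the 4 members, genes overlapping their windows, the 5 genes most like Aire in window share, and of each pathway list up to 4 gained and 4 lost members. Regions named were recurrent, gained or lost. Members and lists were chosen with earlier results of these data known. Alternative settings were lists cut to equal length, a minimum −log10 q of 3, windows of 10 and 50 kb, 10 bp added, a merging gap of 100 bp, coverage of 50% of a region, all 6 wild types as controls, other ranks, a replicate block and leaving out each replicate; leaving out the knockout set and setting Aire -/- beside the C442G wild types were added after seeing the data. The counting and tests were tested on simulated data. Python 3.11.15, numpy 2.4.6 and pandas 2.3.3 were used.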

Additional observations from a re-analysis of the deposited data

Results flagged for a closer look

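The covered length of the Icosl window as a share of its list moved in opposite directions in 2 sets: its log2 ratio of mutant to wild type was −0.95 in the knockout set, where both Aire -/- libraries lay below both wild types, and 0.33 in the C313Y set, where both heterozygotes lay above, a difference of −1.28. The width percentile of the Aire promoter region did the reverse: mutant minus wild type was 13.9 points in the knockout set and −5.03 points in the C313Y set, a difference of 18.9 points. Neither difference was tested, and list length differed between genotypes in the knockout set and overlapped in the C313Y set.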

How the results depend on the processing

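With 2 libraries per group, depth unknown and positions only in the C313Y set, no adjusted p passed 0.05 under any setting. Lists were cut to equal length within each set by −log10 p, but by width in the C313Y set, where narrow peaks were thus dropped. The minimum −log10 q left the C313Y lists uncut, so these 2 settings did not treat the sets alike. The log2 ratio of covered length stayed above 0 for all 4 genes under all 19 alternatives, from 0.35 to 1.22 for Aire, 0.25 to 0.81 for Dnmt3l, 0.094 to 0.73 for Icosl (lowest with lists of equal length, exact permutation p = 0.472) and 0.17 to 0.57 for Pfkl (lowest with 10 kb windows). For Aire, Dnmt3l and Pfkl the covered lengths were already separate in all 3 sets. Leaving out libraries or the knockout set, or blocking replicates, could thus not turn their direction. The upstream region stayed wider in mutants under all 16 that gave a value (0.42 to 0.84). Its widths were already separate in all 3 sets, so leaving out libraries or blocking replicates could not turn this direction. Equal lists and the merging gap left its ratio at 0.70, because they do not call widths anew. Whether its width follows depth or list length was not tested. The direction of the window share was unstable. For Aire it turned positive at a −log10 q of at least 3 (0.57), with lists of equal length (0.27), with 10 kb windows (0.068), with 10 bp added (0.018) and without the knockout set (0.12). For Dnmt3l it turned at the higher q (0.16), with equal lists (0.041) and without the knockout set (0.052). For Icosl it turned with 50 kb windows (0.10) and without the knockout set (0.12), and for Pfkl with equal lists (0.16) and without the knockout set (0.16). The cause was not tested.

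The width percentile of the Aire promoter region turned to −1.95 points with equal lists and −0.51 without the knockout set. With equal lists those of the Cfap410, Gm51807 and Icosl start regions turned to −6.28, −1.13 and −3.90; without the knockout set those of Gm51807 and Icosl turned to −1.97 and −0.071. Regions gained in the knockout set numbered 6 at the higher q, 1 with equal lists, 5 with 50% coverage and 1 against all 6 wild types; in the C313Y set 0 with equal lists and 2 with 50% coverage. The region lost in the C442G set fell to 0 at the higher q, with 50% coverage and against all wild types. Genome-wide shares under these settings were not computed, so these counts cannot be set beside those of all regions.

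Leaving out each replicate in turn moved the Aire share from −0.12 to 0.047. Gained regions ranged from 3 to 8 (knockout), 1 to 4 (C313Y) and 3 to 6 (C442G), and lost regions from 0 to 1, 0 to 1 and 1 to 2. A rise is built into the rule when 1 library is missing, and the genome-wide shares were not computed. The gains came to 7, 8 and 5 without Aire -/- replicate 1, Aire -/- replicate 2 and the second wild type of that set; to 4, 3, 2 and 3 without Aire +/C313Y replicate 2 or 3 and C313Y-set wild type 1 or 2; and to 5 and 6 without Aire +/C442G replicate 1 or 2. The log2 width of the Cfap410 start region ranged from −0.030 to 0.085 and of the Icosl start from −0.00094 to 0.32; width percentiles ranged from −0.81 to 1.42 points (Cfap410), −0.31 to 0.18 (Pfkl) and −1.07 to 5.29 (Icosl). The region beyond Icosl was gained in 3 sets each time. Its calls in all 6 mutant and 0 of 6 wild-type libraries fix that outcome, so it is no test of stability.

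Same-numbered libraries did not deviate together (correlation 0.02 in the knockout and −0.02 in the C442G set), so numbers were not taken as pairs. With a replicate block in these sets (16 assignments, smallest exact p 0.125), covered length of the Aire window gave 0.72 (exact permutation p = 0.125) and width of the upstream region 0.84; the width percentile of the Pfkl start turned to 0.19 points. At a −log10 q of at least 3 the Aire promoter and upstream regions were not called in all 12 libraries, and with equal lists the intergenic region between Pfkl and Aire was not, so these gave no value.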
